A study of Rattus norvegicus with 20 samples.

Results

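The rows described here were those of rat subcutaneous tissue whose level was high in both rosiglitazone and lean rats and low in both resveratrol and obese rats. They were picked from the 36685 transcript clusters of the deposited table, a transcript cluster being the set of array probes assigned to 1 locus. Rows with an absolute difference of 1.0 or more between the rosiglitazone and lean means on the log2 scale were left out, which kept 35324 rows. Each remaining row received a score, the smaller of the rosiglitazone and lean means minus the larger of the resveratrol and obese means. The 100 rows with the highest score were taken. The choice used all 4 group means, so every difference between groups in these rows is given as a description and not as a test.

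Tissue came from male ZDF rats of the Zucker strain, with 5 arrays in each of 4 groups named rosiglitazone, resveratrol, obese and lean control. Lean rats ate a standard chow, and obese rats received a stock diet for 6 weeks. Age, dose and treatment time are not in the labels, which also do not state that the rosiglitazone and resveratrol rats were obese or what they ate. They name the tissue only as subcutaneous. ZDF rats are a model of obesity and diabetes that carries a defective leptin receptor in its obese animals. Whether the rosiglitazone level is a return to the lean level therefore cannot be told from the labels, and the rows are called here the rows high with rosiglitazone and in lean.

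Rosiglitazone is a thiazolidinedione that binds the nuclear receptor PPAR gamma, the regulator of fat cell formation and fat storage. In fat tissue this receptor drives genes for fatty acid uptake, triglyceride storage and, under thiazolidinediones, mitochondrial oxidation. Resveratrol is a plant polyphenol studied for its action on energy metabolism.

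Of the 100 rows, 30 carried 1 gene symbol in the platform annotation, 2 carried several symbols and 68 were not listed there. Among all rows 40.4% carried 1 symbol. The 30 named genes are described below by their roles, and the other 70 rows by their counts. In 5 pairs of members both rows held the same values on all 20 arrays, so the 100 rows comprised 95 distinct measurements. The mean level of the members ran from 1.44 to 8.86 on the log2 scale, with a median of 3.92 against 2.55 over all rows. It lay above the median of all rows for 86 of the 100 members and for 29 of the 30 named genes.

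Some arrays stood apart from their groups. The median of the 7 measured fat cell markers lay between 9.5 and 10.32 in every array. Adiponectin (Adipoq) averaged 10.89 ± 0.05 with rosiglitazone, 10.80 ± 0.11 with resveratrol, 10.73 ± 0.11 in obese and 10.79 ± 0.12 in lean (SD, n = 5 each). Slc2a4, another of the 7, was lower and less even, with 5.31 ± 0.25, 4.15 ± 0.26, 3.46 ± 0.43 and 3.86 ± 0.40 in the same groups. Markers of mammary epithelium differed sharply between arrays of the same group. The milk protein gene Csn3 measured 7.13, 1.83, 8.29, 1.996 and 7.72 with rosiglitazone, replicates 1 to 5 in order, and 2.26, 2.11, 2.003, 2.01 and 1.94 with resveratrol. It measured 1.81, 1.96, 9.78, 10.22 and 2.97 in obese and 3.60, 1.57, 10.80, 11.18 and 10.88 in lean. Thus 8 arrays lay at 7.13 or above and the other 12 at 3.60 or below. All 6 of the 6 measured mammary markers (Krt8, Epcam, Csn2, Csn3, Wap and Cldn3) exceeded the median level of all rows in obese 3, obese 4, lean 3, lean 4 and lean 5. In rosiglitazone 1, 3 and 5 it was 3, 4 and 4 of them, and in each resveratrol array 1, Krt8. The summed level of the 6 markers, as intensities, lay between 24.1 and 348 with rosiglitazone and between 25.8 and 31.4 with resveratrol. In obese its lowest value was 26.7 and its highest 1339, and in lean 26.0 and 3047. Rosiglitazone 3 also carried more of the skeletal muscle gene Acta1 (7.93, other arrays 3.10 to 5.36) and of the keratinocyte gene Krt14 (6.15, other arrays 2.21 to 3.73). Muscle markers were not confined to rosiglitazone. The summed level of the 4 measured ones reached 417.2 with rosiglitazone and 146.5 in lean, where the lowest array had 37.88. It reached 53.74 with resveratrol and 66.82 in obese.

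The pattern by group was built into the means by the choice of rows, and it was looser array by array. Scores ran from 1.37 down to 0.43, with a median of 0.53, and 4 members scored at least 1. The rows at the edge could not be told apart, since the lowest 3 members (17607551 and 17608969, which hold the same values, and 17600141) and the first 3 rows left out (17758431, 17619894 and 17603225) all scored 0.43. The median member measured 4.37 with rosiglitazone, 3.63 with resveratrol, 3.56 in obese and 4.43 in lean. Rosiglitazone lay above lean in 67 of the members and below it in 33. Resveratrol lay above obese in 62 and below it in 38, with differences between -1.48 and 1.26.

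**Figure D1:**
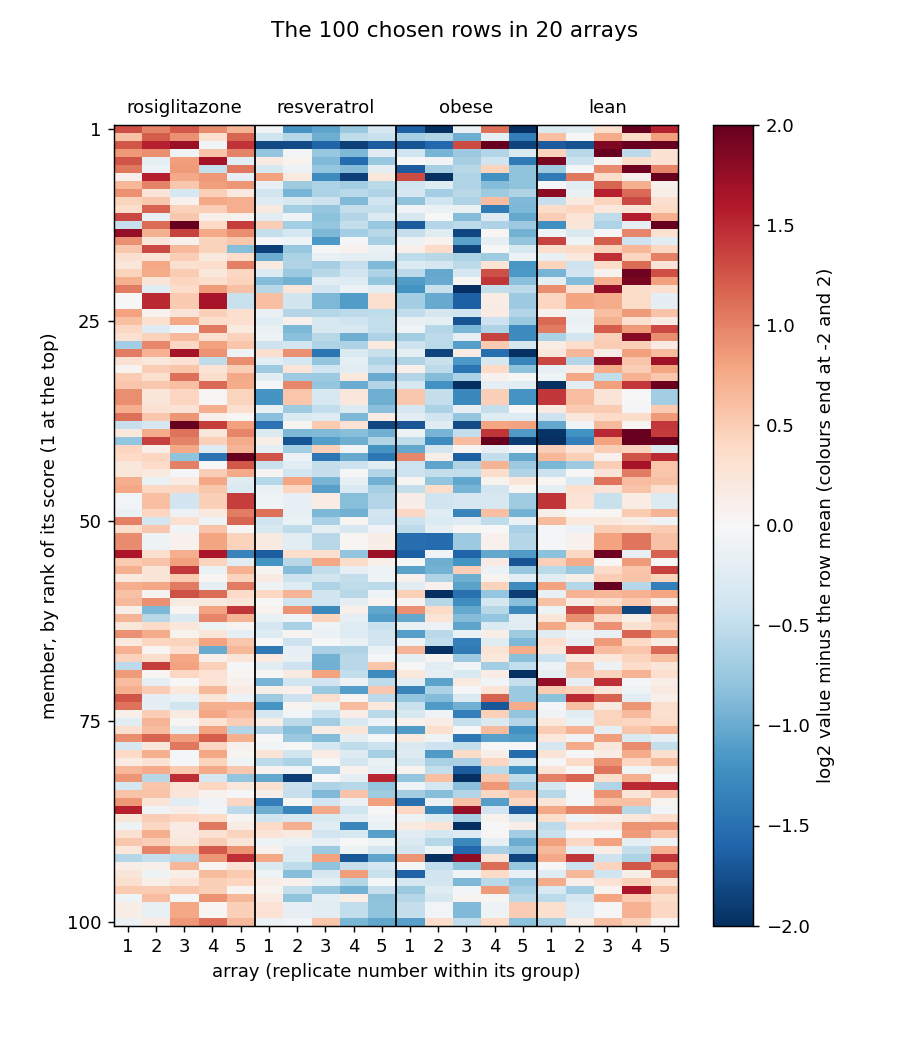
Heat map of the 100 members (rows, by rank of score) in the 20 arrays (columns, by group and replicate), coloured by the log2 value minus the row's mean. Rosiglitazone columns are mostly red and resveratrol columns mostly blue, while obese 4, lean 1 and lean 2 depart from the other arrays of their groups.

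Within groups the members varied more than the bulk of the table. This is partly built in, because a choice by the largest gaps between group means favours rows with a large spread. The median SD of a member over 5 arrays was 0.42 with rosiglitazone, 0.40 with resveratrol, 0.64 in obese and 0.53 in lean, while the median over all rows was 0.23, 0.22, 0.36 and 0.27 for the same groups. Every rosiglitazone array exceeded every obese array in 23 members (6.48% of all rows did so) and every resveratrol array in 29 members (3.07% of all rows). Every lean array exceeded every obese array in 10 members (0.559% of all rows) and every resveratrol array in 13 (1.46% of all rows). All 10 rosiglitazone and lean arrays exceeded all 10 resveratrol and obese arrays in 3 members, beside 9 of all 36685 rows. The 3 members were Coq8a and the unnamed rows 17791670 and 17881407.

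The model fitted to all rows (limma, with Benjamini-Hochberg adjustment over 36685 rows) called 36 of the 100 members higher with rosiglitazone than in obese, where 8.90% of all rows were called higher, and 0 lower (6.12% of all rows). Against resveratrol it called 11 members higher with rosiglitazone, beside 1.26% of all rows, and 0 lower (0.946% of all rows). For obese against lean 3 members were called lower (0.0654% of all rows), and for resveratrol against lean 6 were called lower (0.0981% of all rows). Both counts turned on single arrays, the first being 12 without obese 4 and 0 without lean 3, lean 4 or obese 5, and the second 13 without lean 2 and 0 without any 1 of the resveratrol arrays or of lean 1, 3, 4 and 5. Between rosiglitazone and lean 0 members were called in either direction, beside 5.38% of all rows. An unadjusted limma p under 0.05 was found for 5 members, beside 7177 of the 36685 rows. Between resveratrol and obese 0 members and 0 of all rows (0%) were called. Here 8 members had an unadjusted limma p under 0.05, beside 9234 of the 36685 rows. Nothing is read from these counts, because the same contrasts chose the members. The p-values measure the spread between the arrays of a group, which the labels call biological replicates.

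Each array could also be read on rows that it had not helped to choose, by picking 100 rows from 19 arrays and reading the array that was left out. Its place was expressed on a scale where 0 is the mean of the resveratrol and obese groups and 1 the mean of the rosiglitazone and lean groups, as the median over the 100 rows. The 5 rosiglitazone arrays lay between 0.811 and 0.933. Resveratrol arrays lay at 0.585, 0.417, 0.079, 0.266 and 0.327 for replicates 1 to 5. Obese arrays lay at 0.237, 0.037, -0.007, 0.771 and -0.123, and lean arrays at 0.074, 0.369, 0.873, 0.773 and 0.746. All rosiglitazone arrays thus lay beside the high groups. Obese 4 also lay there, whereas lean 1 lay beside the low groups and lean 2 between the high and the low groups. Resveratrol 1 (0.585) and resveratrol 2 (0.417) also lay between them, both above lean 2 (0.369). The 20 choices share most of their arrays, so these places are a description with no test.

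**Figure D2:**
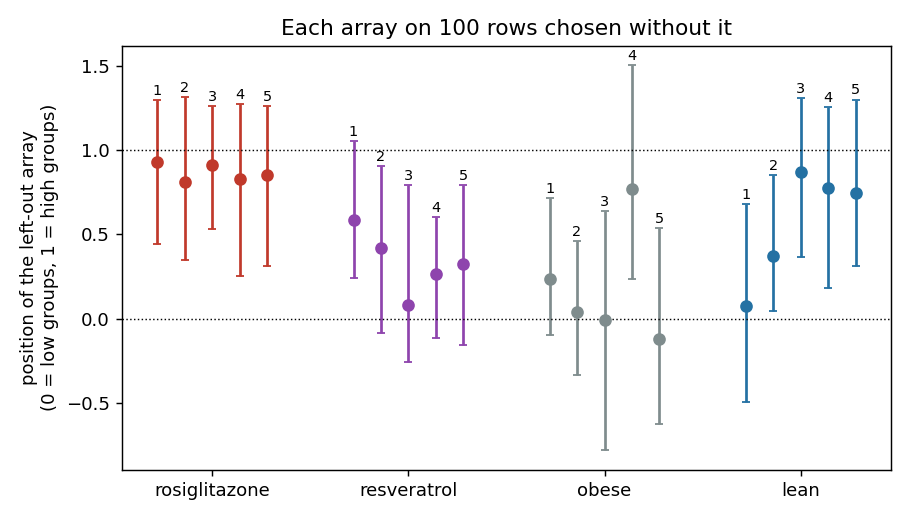
Position of each array on 100 rows chosen from the other 19 arrays, on a scale from 0 (mean of resveratrol and obese) to 1 (mean of rosiglitazone and lean). Points are medians over the 100 rows, bars the quartiles and numbers the replicates. The 5 rosiglitazone arrays lie at 0.811 or above, obese 4 at 0.771, resveratrol 1 at 0.585 and lean 1 at 0.074.

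The choice itself moved with single arrays. Leaving out 1 array at a time kept from 71 (without lean 1) to 92 (without rosiglitazone 3) of the 100 members. Of the members, 26 were picked in all 20 turns, and 9 of these had a name, namely Coq8a, Tgfb3, Trhde, Sh3yl1, Kcnip1, Adhfe1, Gbp7, Slc1a3 and Cds1. Without obese 4 and lean 1 together 66 members were kept, and without the 8 arrays with Csn3 above 5 only 32 were.

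Among the members that encode metabolic enzymes or their partners, only Coq8a had no overlap between the high and low groups. Coq8a encodes a kinase-like mitochondrial protein needed for the synthesis of coenzyme Q. It measured 5.15, 5.78, 5.48, 4.88 and 5.73 with rosiglitazone and 4.16, 3.99, 3.59, 4.06 and 4.11 with resveratrol. In obese it measured 3.90, 3.96, 3.58, 4.36 and 3.20, and in lean 5.16, 4.56, 5.31, 4.95 and 5.39. The lowest lean array (4.56) lay above the highest obese array (4.36), so the 2 high and the 2 low groups did not overlap. The mean difference was 1.60 for rosiglitazone minus obese, 1.42 for rosiglitazone minus resveratrol and -1.27 for obese minus lean.

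Ehhadh, the bifunctional enzyme of peroxisomal fatty acid oxidation, measured 6.87, 5.83, 6.48, 5.88 and 6.05 with rosiglitazone and 4.65, 4.76, 4.22, 4.44 and 4.56 with resveratrol. Obese arrays gave 4.66, 4.88, 3.30, 5.16 and 4.17, and lean arrays 5.03, 4.82, 5.11, 6.09 and 5.43. All rosiglitazone arrays exceeded all resveratrol and obese arrays, while lean overlapped with obese. Rosiglitazone exceeded lean by 0.92 in the mean, the largest such difference among the members and just inside the limit of 1.0.

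Mtarc1, a mitochondrial molybdenum enzyme that reduces N-hydroxylated compounds, had the same order. It averaged 7.69 ± 0.21 with rosiglitazone, 6.35 ± 0.41 with resveratrol, 6.01 ± 0.71 in obese and 6.82 ± 0.45 in lean. Its rosiglitazone arrays (7.64, 7.88, 7.55, 7.92 and 7.43) lay above all resveratrol arrays (6.71, 5.98, 5.85, 6.53 and 6.69) and all obese arrays (6.91, 6.62, 5.29, 5.64 and 5.60). The lean arrays (6.92, 6.65, 7.56, 6.41 and 6.55) reached into the upper obese and resveratrol values. Qdpr, the cytosolic reductase that recycles tetrahydrobiopterin, averaged 6.04 ± 0.11 with rosiglitazone, 5.22 ± 0.33 with resveratrol, 4.63 ± 0.68 in obese and 5.68 ± 0.46 in lean. Its rosiglitazone arrays were close together (6.06, 6.13, 5.92, 6.15 and 5.92) and above every resveratrol and obese array. Obese arrays were spread widely (5.46, 4.92, 3.72, 4.85 and 4.18), and lean 3 was the highest of all arrays at 6.46.

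Other metabolic enzymes were less separated. Adhfe1, a mitochondrial transhydrogenase of hydroxyacids, averaged 4.98 ± 0.34 with rosiglitazone, 3.96 ± 0.41 with resveratrol, 4.04 ± 0.52 in obese and 4.80 ± 0.55 in lean. Got2, the mitochondrial aspartate aminotransferase, averaged 4.12 ± 0.25, 3.43 ± 0.46, 3.43 ± 0.47 and 3.93 ± 0.39 in the same groups. Acy1, a cytosolic aminoacylase that frees amino acids from their acetylated form, averaged 4.11 ± 0.37 with rosiglitazone, 3.56 ± 0.38 with resveratrol, 3.24 ± 0.82 in obese and 4.02 ± 0.29 in lean. Their high and low groups overlapped, with 4, 4 and 3 of the 5 rosiglitazone arrays above every resveratrol and obese array. Fewer cells of a type and less RNA per cell cannot be told apart in these bulk samples.

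Eci1, the mitochondrial isomerase used for the oxidation of unsaturated fatty acids, behaved otherwise. It measured 5.10, 5.07, 5.63, 5.01 and 5.25 with rosiglitazone and 4.67, 4.46, 4.17, 4.50 and 4.63 with resveratrol. It measured 4.94, 4.48, 4.16, 6.08 and 4.20 in obese and 4.98, 4.54, 5.41, 6.20 and 5.82 in lean. Obese 4 (6.08) exceeded all rosiglitazone arrays, and lean 1 and lean 2 were the lowest of the lean arrays.

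Enzymes that make activated acetate and acetoacetate also showed this split. Acss2 joins acetate to coenzyme A in the cytosol and nucleus and supplies carbon for fat and sterol synthesis. It measured 7.42, 7.72, 7.48, 7.20 and 7.39 with rosiglitazone and 6.71, 6.23, 6.41, 6.58 and 6.36 with resveratrol. Obese arrays gave 6.44, 5.95, 6.63, 8.27 and 5.82, and lean arrays 6.05, 6.59, 7.04, 8.92 and 8.26. The treated groups did not overlap, with 0.99 between their means. Obese 4, lean 4 and lean 5 exceeded every rosiglitazone array, and lean 1 and lean 2 fell among the obese values. Aacs, which activates acetoacetate for sterol and fatty acid synthesis, measured 5.12, 7.27, 6.88, 6.37 and 6.63 with rosiglitazone and 6.03, 4.16, 4.80, 4.92 and 5.29 with resveratrol. In obese it measured 5.38, 4.65, 6.51, 8.10 and 3.99, and in lean 3.79, 4.50, 6.69, 8.70 and 8.04. Its lean arrays covered 4.91 log2 units, more than the difference between any 2 group means, of which the largest was 1.42.

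Dhrs11, a short-chain dehydrogenase, measured 3.93, 4.09, 4.28, 3.95 and 4.09 with rosiglitazone and 3.52, 2.79, 3.07, 2.65 and 3.002 with resveratrol. It measured 2.93, 3.10, 3.43, 4.97 and 2.37 in obese and 2.99, 3.24, 4.10, 5.44 and 4.55 in lean. Again obese 4 and lean 3 to 5 were high, and lean 1 and 2 were low. Sectm1b, the highest-scoring named member after Coq8a, showed the same arrays far apart. It measured 5.76, 6.07, 6.25, 4.46 and 5.97 with rosiglitazone and 2.71, 2.73, 2.93, 2.66 and 2.85 with resveratrol. Obese arrays gave 2.79, 2.95, 5.82, 7.06 and 2.67, and lean arrays 2.85, 2.78, 6.38, 8.09 and 6.62. All resveratrol arrays, obese 1, 2 and 5 and lean 1 and 2 lay below 3, and all other arrays above 4.

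**Figure D3:**
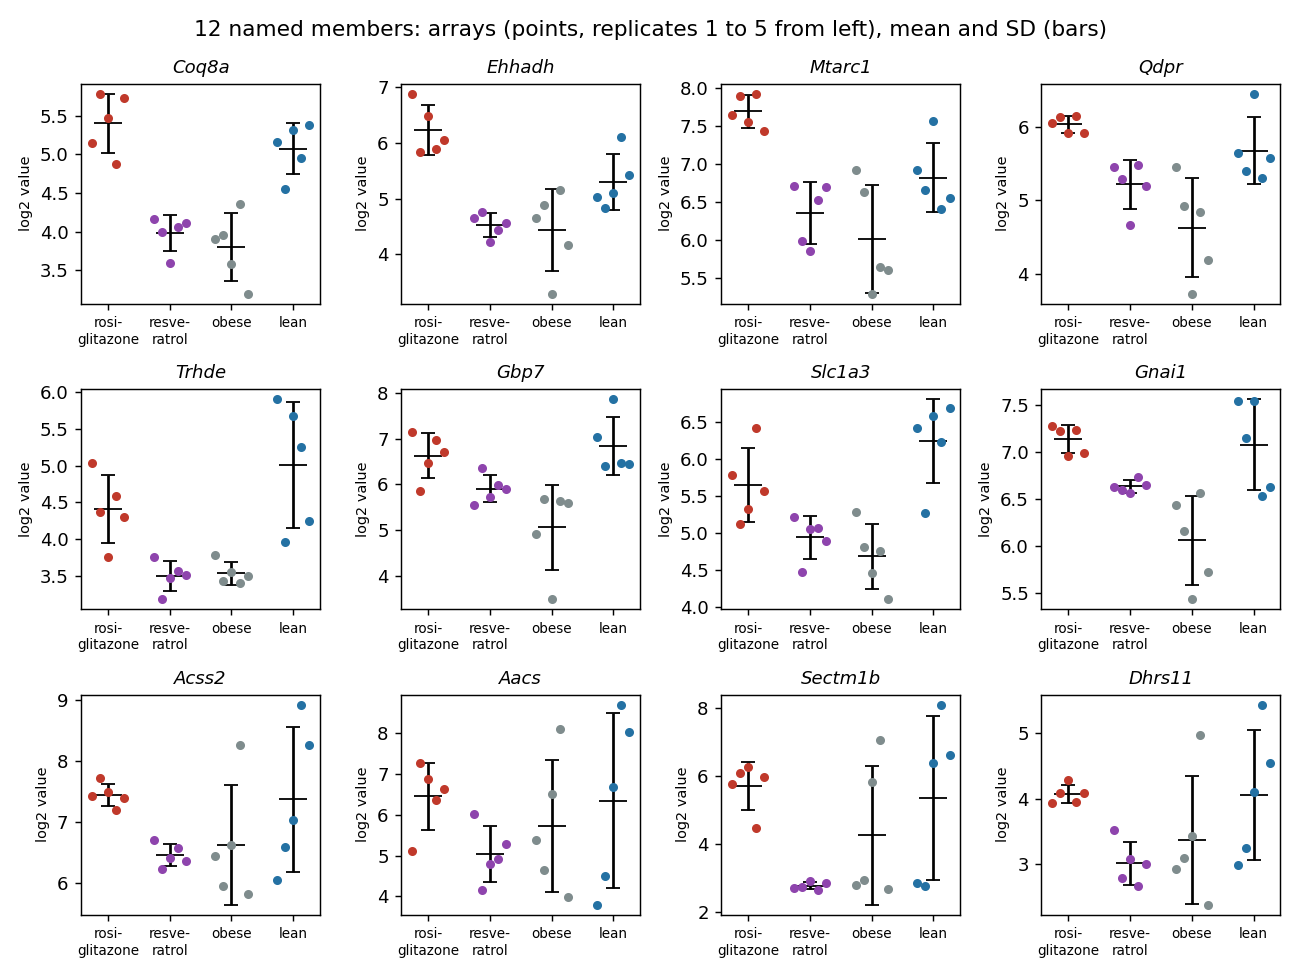
Log2 values of 12 named members by group, with 1 point per array (replicates 1 to 5 from left), the mean and the SD (n = 5). Coq8a separates rosiglitazone and lean from resveratrol and obese, whereas Acss2, Aacs, Sectm1b and Dhrs11 split inside the obese and lean groups.

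This split was counted over all members. Obese 4 was the highest obese array in 43 of the 100 members (17.2% of all rows). Lean 1 and lean 2 both lay below lean 3 to 5 in 34 members (9.46% of all rows). Both orders held in 22 members (3.27% of all rows), of which 12 had a name: Sectm1b, Tgfb3, Sh3yl1, Ehhadh, Acss2, Baiap2l1, Dhrs11, Retreg1, Aacs, Chi3l1, Rpl37l4 and Eci1. Neither order held in 45 members, of which 11 had a name: Trhde, Kcnip1, Gbp7, Slc1a3, Isg15, Eif4a2, Mtarc1, Acy1, Qdpr, Pla2g15 and Phlda3. Rows with neither order were less frequent among the members than over all rows. The orders were chosen after the values were seen.

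The arrays that were high in the split genes of the obese and lean groups were among those with mammary markers. Acss2 measured 8.27 in obese 4, where Csn3 was 10.22, and 8.92 in lean 4, where Csn3 was 11.18. Obese 3, with Csn3 at 9.78, measured 6.63 for Acss2. With rosiglitazone, however, Acss2 measured 7.72 and 7.20 in replicates 2 and 4, where Csn3 was 1.83 and 1.996, and 7.42, 7.48 and 7.39 in the replicates with Csn3 above 7. Sectm1b measured 6.07 and 4.46 in those rosiglitazone replicates 2 and 4. Leaving out the 8 arrays with Csn3 above 5 left 2 rosiglitazone, 5 resveratrol, 3 obese and 2 lean arrays. On these arrays 82 of the 100 members had a score above 0, with a median score of 0.30 in place of 0.53. The 12 arrays also took part in the choice of the members. A score above 0 is therefore partly built in, and nothing is read from this count. The lean arrays kept were lean 1 and lean 2, so the score of every member in which these lay below lean 3 to 5 had a lower lean mean by construction, and nothing is read from the fall in those members. Named members with a score below 0 on the 12 arrays were Acss2 (-0.14), Retreg1 (-0.87), Aacs (-0.89) and Chi3l1 (-0.47). On the same arrays Coq8a scored 0.88, Trhde 0.90 and Slc1a3 0.83. The part of mammary tissue in these values was not tested.

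**Figure D4:**
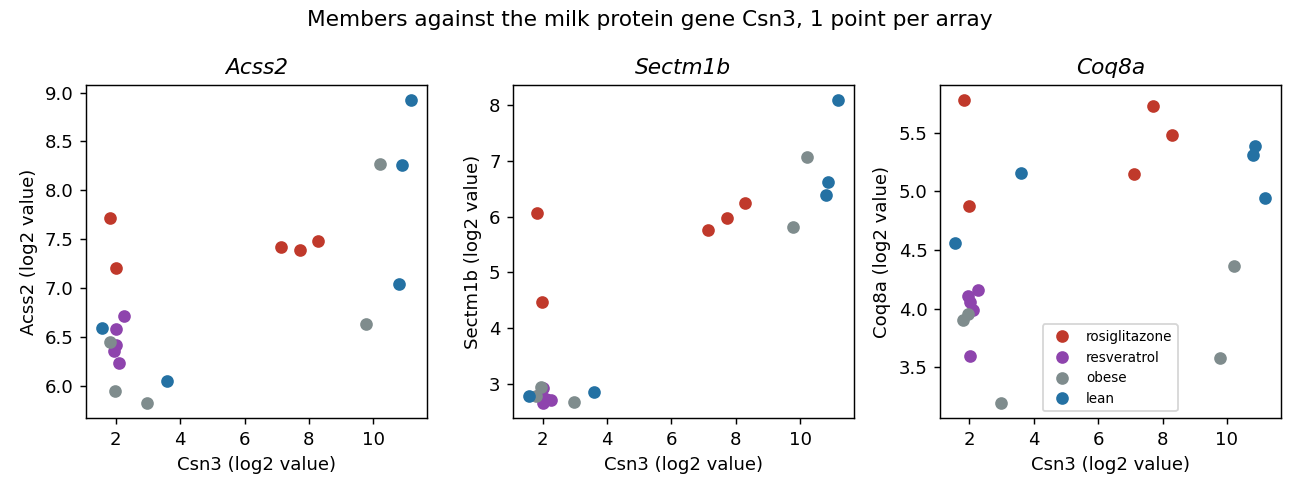
Log2 values of Acss2, Sectm1b and Coq8a (vertical axes) against the milk protein gene Csn3 (horizontal axes), 1 point per array, coloured by group. Among obese and lean arrays the high Acss2 and Sectm1b values lie at Csn3 above 9, whereas the 2 rosiglitazone arrays with Csn3 near 2 also measured above 7 for Acss2.

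Signalling and secreted proteins formed the next group. Trhde, the membrane peptidase that breaks down thyrotropin-releasing hormone, measured 5.03, 4.37, 3.76, 4.58 and 4.31 with rosiglitazone and 3.75, 3.19, 3.48, 3.57 and 3.52 with resveratrol. In obese it measured 3.78, 3.43, 3.56, 3.40 and 3.51, and in lean 5.90, 3.97, 5.67, 5.25 and 4.24. Resveratrol and obese arrays were tightly grouped, all lean arrays lay above them, and rosiglitazone 3 was the only rosiglitazone array not above them all. The rosiglitazone mean lay 0.60 below the lean mean. Slc1a3, a plasma membrane transporter of glutamate and aspartate, was also highest in lean. It measured 5.79, 5.13, 5.33, 6.42 and 5.57 with rosiglitazone and 5.22, 4.48, 5.05, 5.07 and 4.89 with resveratrol. It measured 5.29, 4.81, 4.47, 4.76 and 4.11 in obese and 6.42, 5.28, 6.58, 6.23 and 6.69 in lean. Of the 5 lean arrays 4 lay above every resveratrol and obese array.

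Gnai1, an inhibitory G protein alpha subunit that lowers cyclic AMP, averaged 7.13 ± 0.15 with rosiglitazone, 6.63 ± 0.07 with resveratrol, 6.06 ± 0.47 in obese and 7.08 ± 0.48 in lean. All 5 rosiglitazone arrays (7.27, 7.23, 6.96, 7.23 and 6.99) lay above all resveratrol arrays (6.63, 6.59, 6.56, 6.74 and 6.65) and all obese arrays (6.43, 6.16, 5.43, 6.56 and 5.73). Lean arrays fell into a high set (7.54, 7.14 and 7.54) and a pair within the resveratrol range or below it (6.53 and 6.63). Phlda3, a small protein that restrains Akt signalling, averaged 5.23 ± 0.14 with rosiglitazone, 4.80 ± 0.28 with resveratrol, 4.32 ± 0.25 in obese and 5.28 ± 0.25 in lean. Resveratrol lay 0.48 above obese in Phlda3 and 0.57 above it in Gnai1, so resveratrol stood between the obese and the high groups in both.

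Tgfb3, a ligand of the transforming growth factor beta family, measured 5.88, 4.70, 5.67, 4.35 and 5.88 with rosiglitazone and 4.50, 4.70, 4.05, 3.96 and 4.64 with resveratrol. Its obese arrays gave 3.16, 4.16, 4.27, 5.27 and 4.02, and its lean arrays 4.11, 4.79, 5.77, 6.76 and 5.79. Obese 4 and lean 4 were again the highest of their groups. Chi3l1, a secreted chitinase-like glycoprotein, averaged 5.01 ± 0.53 with rosiglitazone, 4.09 ± 0.13 with resveratrol, 4.01 ± 0.66 in obese and 4.65 ± 1.05 in lean. Smoc1, a secreted calcium-binding matrix protein, averaged 6.28 ± 0.36, 5.73 ± 0.34, 5.81 ± 0.33 and 6.29 ± 0.24 in the same groups. Kcnip1, a subunit of voltage-gated potassium channels, had low levels, with 2.96 ± 0.59 with rosiglitazone, 2.18 ± 0.31 with resveratrol, 2.09 ± 0.43 in obese and 3.09 ± 0.75 in lean. In these genes arrays of the high groups overlapped with those of the low groups.

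Interferon-inducible members were Gbp7, a guanylate-binding protein, and Isg15, a ubiquitin-like modifier. Gbp7 measured 7.14, 5.86, 6.47, 6.97 and 6.70 with rosiglitazone and 5.56, 6.36, 5.73, 5.98 and 5.90 with resveratrol. It measured 4.92, 5.67, 3.49, 5.64 and 5.59 in obese and 7.04, 6.40, 7.86, 6.46 and 6.43 in lean. All lean arrays lay above all resveratrol and obese arrays, the lowest lean value being 6.40 and the highest resveratrol value 6.36. Obese 3 was lowest of all, and resveratrol lay 0.84 above obese in the mean. Isg15 lay below the median level of all rows (2.55) in every group mean. It averaged 2.47 ± 0.67 with rosiglitazone, 1.77 ± 0.27 with resveratrol, 1.76 ± 0.15 in obese and 2.30 ± 0.26 in lean. Rosiglitazone 2 (1.69) and rosiglitazone 4 (1.97) lay within the values of the low groups, and the other 3 rosiglitazone arrays above them.

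Membrane lipid and organelle proteins made up a further group. Pla2g15, a lysosomal phospholipase, averaged 6.25 ± 0.38 with rosiglitazone, 5.19 ± 0.30 with resveratrol, 4.77 ± 0.56 in obese and 5.63 ± 0.52 in lean, and all its rosiglitazone arrays exceeded all resveratrol and obese arrays. Cds1, which makes the phospholipid precursor CDP-diacylglycerol, averaged 4.07 ± 0.29 with rosiglitazone, 3.50 ± 0.16 with resveratrol, 3.51 ± 0.30 in obese and 4.04 ± 0.31 in lean. Its group means differed by at most 0.57. Retreg1, a receptor for the autophagy of endoplasmic reticulum, measured 4.84, 5.37, 5.72, 4.85 and 5.60 with rosiglitazone and 4.35, 3.73, 3.75, 3.78 and 3.66 with resveratrol. It measured 4.53, 3.70, 4.14, 6.06 and 3.50 in obese and 2.67, 3.43, 6.14, 6.77 and 6.03 in lean, so that lean 1 and lean 2 lay below every resveratrol array. Baiap2l1, which bends membranes and links them to actin, averaged 3.49 ± 0.17 with rosiglitazone, 2.44 ± 0.35 with resveratrol, 2.75 ± 1.07 in obese and 3.53 ± 1.05 in lean. Sh3yl1, a lipid-binding SH3 domain protein, averaged 4.89 ± 0.27, 3.92 ± 0.25, 3.95 ± 0.61 and 4.74 ± 0.64 in the same groups. In both genes obese 4 was the highest obese array, at 4.49 and 5.00.

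The remaining named members act in gene expression. Eif4a2, an RNA helicase of translation initiation, measured 7.55, 7.70, 7.54, 7.22 and 7.37 with rosiglitazone and 6.98, 6.68, 7.22, 7.08 and 6.87 with resveratrol. In obese it measured 7.18, 7.20, 6.26, 7.04 and 7.10, and in lean 8.09, 7.62, 8.24, 7.63 and 7.79. All lean arrays exceeded all resveratrol and obese arrays, and 4 of the 5 rosiglitazone arrays did. Zim1, an imprinted zinc finger gene, averaged 6.11 ± 0.50 with rosiglitazone, 5.03 ± 0.22 with resveratrol, 5.03 ± 0.74 in obese and 5.55 ± 1.45 in lean, with lean arrays from 4.06 to 7.74. The row named Rpl37l4, whose probes may also read closely related ribosomal protein genes, averaged 4.37 ± 0.22, 3.87 ± 0.26, 3.91 ± 0.44 and 4.67 ± 0.35 in the same groups.

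The highest score of all belonged to row 17882735, which has no name in the annotation. It measured 10.15, 9.85, 10.09, 9.80 and 9.53 with rosiglitazone and 8.78, 7.67, 7.81, 8.12 and 8.53 with resveratrol. It measured 7.23, 6.27, 8.73, 9.95 and 6.87 in obese and 8.57, 8.61, 9.20, 11.005 and 10.40 in lean. Obese 4 lay within the rosiglitazone range, and lean 1 and lean 2 fell below resveratrol 1 and obese 3. The 70 rows without a single name scored between 0.43 and 1.37.

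Promoters of the named members were read from RefSeq (GRCr8), from 250 bases before to 50 bases after the start of the gene, for the 28 of 30 genes with an entry. They were searched on both strands for AGGTCA, the hexamer recognised by PPAR and related nuclear receptors, and for the direct repeat of this hexamer with 1 base of any kind between the copies, which PPAR binds with its partner RXR. The repeat was found in 0 of the 28 promoters. It occurred in 0.0341% of the promoters of genes named on the array and in 0.0583% of all 27457 promoters. At such a rate 28 promoters were too few to find it, so nothing is read from its absence. The hexamer was found in 2 of the 28 (7.14%), and in 13.5% of the 11727 promoters of genes named on the array. These promoters, of Eci1 and Chi3l1, are shown in gene orientation with the hexamer or its reverse complement in capitals, beside that of Coq8a, the leading named member, which holds none. The Eci1 window is chr10:13961000-13961299 on the + strand, the Chi3l1 window chr13:48193589-48193888 on the + strand and the Coq8a window chr13:94463329-94463628 on the - strand. The match begins 94 bases before the start in Eci1, on the opposite strand, and 1 base after it in Chi3l1. A match of these letters does not show binding.
Eci1: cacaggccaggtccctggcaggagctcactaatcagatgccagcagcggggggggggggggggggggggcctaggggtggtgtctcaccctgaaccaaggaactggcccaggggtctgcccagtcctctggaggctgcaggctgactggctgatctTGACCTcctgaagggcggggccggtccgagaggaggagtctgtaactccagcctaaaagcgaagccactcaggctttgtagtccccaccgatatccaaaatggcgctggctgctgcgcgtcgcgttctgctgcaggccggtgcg
Chi3l1: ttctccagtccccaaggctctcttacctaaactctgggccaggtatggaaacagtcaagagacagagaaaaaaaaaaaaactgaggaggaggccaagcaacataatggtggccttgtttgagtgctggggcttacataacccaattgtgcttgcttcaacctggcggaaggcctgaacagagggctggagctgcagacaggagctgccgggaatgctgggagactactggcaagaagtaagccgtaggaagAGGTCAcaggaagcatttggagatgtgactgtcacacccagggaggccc
Coq8a: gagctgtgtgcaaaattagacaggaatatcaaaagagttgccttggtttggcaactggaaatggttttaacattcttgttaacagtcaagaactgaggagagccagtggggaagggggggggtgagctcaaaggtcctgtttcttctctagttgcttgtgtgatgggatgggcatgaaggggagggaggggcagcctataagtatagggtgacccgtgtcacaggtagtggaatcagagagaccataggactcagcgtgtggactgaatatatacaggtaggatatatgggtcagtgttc

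Pathway lists gave the surroundings of the members, each counted over its genes that are not members. In fatty acid oxidation, which holds Ehhadh and Eci1, 19 of 20 genes rose with rosiglitazone against obese (8.90% of all rows called higher), 18 against resveratrol (1.26%) and 19 against lean (3.68%), and 0 fell. The median log2 difference of the list was 1.80 against obese, 1.35 against resveratrol and 1.48 against lean, while the median of all rows lay at -0.08, -0.02 and -0.01. Among its brightest genes, the thiolase Acaa2 averaged 9.97 ± 0.23 with rosiglitazone, 7.96 ± 0.14 with resveratrol, 7.89 ± 0.56 in obese and 8.24 ± 0.78 in lean. Its limma adjusted p was 0.000118 against obese, 0.000485 against resveratrol and 0.000991 against lean. Hadha, the alpha subunit of the mitochondrial trifunctional protein, averaged 9.65 ± 0.13, 8.49 ± 0.11, 8.23 ± 0.47 and 8.34 ± 0.16 in the same groups. In the citrate cycle list 19 of 19 genes rose with rosiglitazone against obese, 17 against resveratrol and 18 against lean. The limit of 1.0 between rosiglitazone and lean left out 17 of the 20 oxidation genes and 17 of the 19 citrate cycle genes.

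The list of fatty acid synthesis from acetyl-CoA, which holds Acss2 and Aacs, was mixed. Of its 13 other genes, 9 rose with rosiglitazone against obese, 6 against resveratrol and 6 against lean, and 0 fell. Me1, the malic enzyme that makes NADPH, averaged 9.85 ± 0.14 with rosiglitazone, 7.42 ± 0.27 with resveratrol, 6.47 ± 0.57 in obese and 7.49 ± 0.82 in lean (limma adjusted p = 7.93e-07 against obese, 0.000105 against resveratrol and 7.08e-05 against lean). Scd, the stearoyl-CoA desaturase, rose against obese (limma adjusted p = 0.0315) and lean (0.021), and not past the threshold against resveratrol (0.843). The median of the 13 genes per array was 7.60 to 8.26 with rosiglitazone and 6.26 to 6.90 with resveratrol. It was 6.28, 5.87, 6.14, 7.66 and 5.77 in obese 1 to 5 and 6.17, 6.45, 6.73, 8.40 and 8.22 in lean 1 to 5. Obese 4 and lean 5 therefore lay inside the rosiglitazone range in these genes and lean 4 above it, whereas in Acss2 and Aacs all 3 arrays exceeded every rosiglitazone array.

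Known targets of PPAR gamma were counted in the same way, with Ehhadh as the only member on the list. Of 27 other genes, 9 rose with rosiglitazone against obese, 4 against resveratrol and 10 against lean, where 1 fell (1.70% of all rows called lower). The genes of the list with the highest level (Lpl, Fabp4, Adipoq and Cd36) passed the test in 0 of these comparisons. Fabp4, a fatty acid carrier of fat cells, averaged 11.23 ± 0.04 with rosiglitazone, 11.17 ± 0.10 with resveratrol, 11.27 ± 0.10 in obese and 11.23 ± 0.16 in lean (limma adjusted p = 0.792 against obese). Lpl, the lipase that frees fatty acids from blood lipids, averaged 11.39 ± 0.09, 11.43 ± 0.09, 11.22 ± 0.25 and 11.37 ± 0.06 in the same groups. Between obese and lean, 1 gene of these 4 lists was called, the fatty acid transporter Slc27a1, which fell to 4.88 ± 0.37 in obese, against 6.06 ± 0.49 in lean (limma adjusted p = 0.0375, 0.0654% of all rows called lower).

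**Figure D5:**
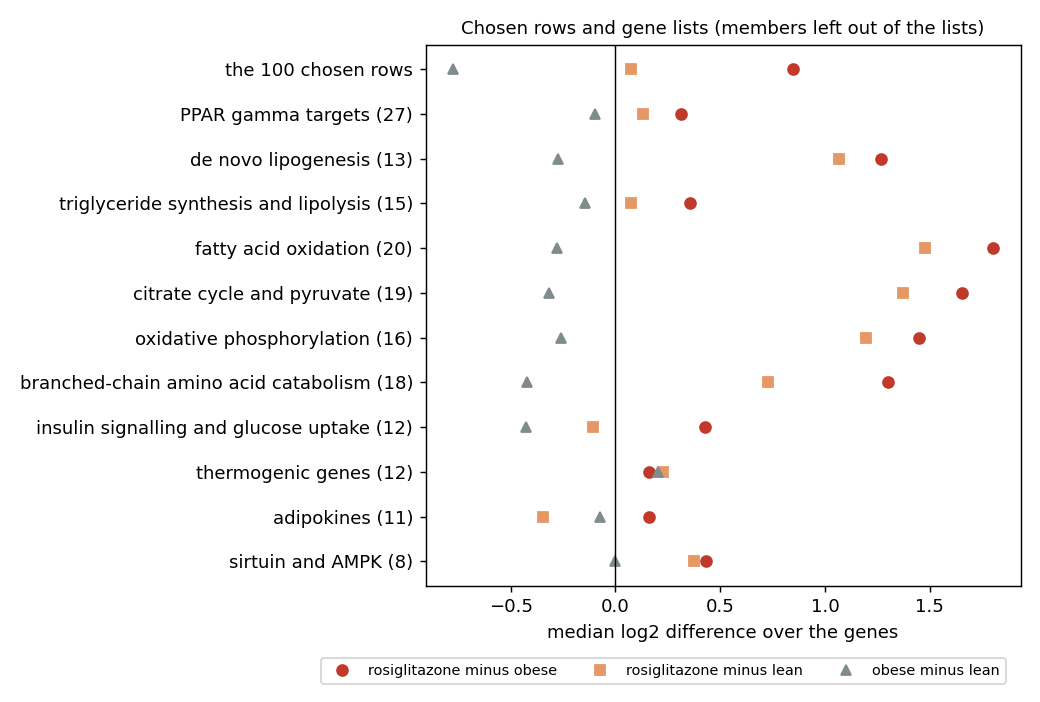
Median log2 difference (horizontal axis) of rosiglitazone minus obese, rosiglitazone minus lean and obese minus lean for the 100 members and for pathway lists without the members (number of genes in brackets). The members lie at 0.85, 0.08 and -0.78, whereas fatty acid oxidation lies at 1.80, 1.48 and -0.28.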

How the data were processed

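Total RNA (100 ng per sample) from 20 rats was measured on Affymetrix rat gene arrays. The deposited values are log2 expression values per transcript cluster, made with RMA per the submitters' processing notes; its settings and the genome build are not stated in those notes. They were used as deposited. All 36685 rows were fitted with limma 3.58.1 in R 4.3.3 on 4 group means, with Benjamini-Hochberg adjustment and a threshold of 0.05, and the script was tested on simulated data. Symbols came from the platform annotation, and rows with several symbols were not named. Members and gene lists were chosen with earlier results of these data known. Named are the 25 highest-scoring members with a symbol, members on a list and the brightest genes of lists. The remaining named members, the markers Csn3, Acta1 and Krt14, and Slc27a1 were added after their values were seen. The number of arrays limits precision. Alternatives were quantile normalization, centring, scaling, a filter on dim rows, array weights, a replicate block, other bounds, group medians, fits on only the compared groups and leaving out arrays.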

Additional observations from a re-analysis of the deposited data

Results flagged for a closer look

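Dixon's criterion was applied to 132 combinations of a group with either a named gene or a summary value per array. In 5 of them, all with genes, 1 array lay far from the other 4 of its group. Chance gives about 1 in 20, or 6.6. Sectm1b measured 4.46 in rosiglitazone 4, against 5.76 to 6.25 in the other rosiglitazone arrays. Zim1 measured 5.25 in the same array, against 6.15 to 6.47. Sh3yl1 measured 3.49 in resveratrol 4, against 3.96 to 4.12 in the other resveratrol arrays, and Retreg1 4.35 in resveratrol 1, against 3.66 to 3.78. Eif4a2 measured 6.26 in obese 3, against 7.04 to 7.20 in the other obese arrays.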

How the results depend on the processing

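The median score of the 100 rows, chosen anew each time, stayed between 0.52 and 0.65 under all alternatives run. The members kept were 49 with group medians in place of means, 66 without obese 4 and lean 1, 32 without the 8 arrays with Csn3 above 5, and 71 to 92 when 1 array was left out. The removal of obese 4 with lean 1 and that of the Csn3 arrays were chosen after seeing the data. Counts of called members by limma moved as follows. For rosiglitazone against obese (36), centring gave 62, leaving out obese 4 and lean 1 gave 56, leaving out the Csn3 arrays gave 20, and single arrays gave 26 to 51. For rosiglitazone against resveratrol (11), array weights gave 22, the 2 groups alone 30, the Csn3 arrays left out 5, and single arrays 7 to 10 (7 without rosiglitazone 3, resveratrol 2 or resveratrol 3). For rosiglitazone against lean (0), the filter gave 2, array weights 3, the 2 groups alone 1, the Csn3 arrays left out 2, and single arrays 0 to 2 (2 without lean 2, 1 without lean 3 or lean 4). For obese against lean (3), the filter gave 7, array weights 0, the 2 groups alone 0, obese 4 and lean 1 left out 27, the Csn3 arrays left out 0, and single arrays 0 to 12 (12 without obese 4, 9 without obese 1, 7 without lean 2, 1 without obese 3 or lean 5, 0 without obese 5, lean 3 or lean 4). For resveratrol against lean (6), centring gave 0, centring with scaling 2, array weights 22, and single arrays 0 to 13 (13 without lean 2, 0 without any resveratrol array or lean 1, 3, 4 or 5). The 2 groups alone, obese 4 and lean 1 left out, and the Csn3 arrays left out each gave 0. For resveratrol against obese (0), leaving out obese 4 and lean 1 gave 4, and single arrays 0 to 2 (2 without obese 1 or obese 4). The cause of these moves was not tested. Centring moved the median of all rows by 0.17 for rosiglitazone minus obese and by 0.13 for resveratrol minus obese. With the replicate number as a block the counts in the same order were 36, 9, 0, 5, 3 and 0. The labels do not say whether the numbers pair the samples. Of 30 pairs of same-numbered arrays, 3 correlated above 0.1 in their deviations (range -0.443 to 0.321). In 14 of 60 comparisons of an array with another group, it correlated best with its own number. These correlations cannot settle the pairing, since other differences between arrays also enter the deviations.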

Other observations

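Other lists, which hold 0 of the 100 members, differed in how many genes passed the test. Over all rows, 8.90% were called higher and 6.12% lower with rosiglitazone against obese, 1.26% and 0.946% against resveratrol, and 3.68% and 1.70% against lean. Of 16 genes of oxidative phosphorylation, 15 rose against obese, 13 against resveratrol and 14 against lean, with median log2 differences of 1.45, 0.93 and 1.20. Of 18 genes that break down branched-chain amino acids, 17 rose against obese, 8 against resveratrol and 8 against lean. Of 15 genes of triglyceride synthesis and lipolysis, 6, 0 and 3 rose in the same comparisons, and 1 fell against lean. Of 12 thermogenic genes 4, 2 and 5 rose. Of 12 genes of insulin signalling and glucose uptake 5, 1 and 1 rose, and 2 fell against lean. Of 8 genes of the sirtuin and AMPK list 2, 1 and 1 rose. Of 11 adipokines 1 rose and 2 fell against obese, 1 fell against resveratrol and 2 fell against lean. The adipokine median lay at 0.16 against obese, -0.17 against resveratrol and -0.35 against lean, and that of insulin signalling at 0.43, 0.02 and -0.11. The share of adipokines called higher against obese was close to that of all rows. All calls are limma with Benjamini-Hochberg adjustment over all rows.

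Markers of endothelial cells moved the other way. Of the 5 measured, 3 fell with rosiglitazone against obese, 4 against resveratrol and 4 against lean, while Vwf rose in these comparisons. Their summed level as intensities lay between 313 and 475 with rosiglitazone and between 666 and 798 with resveratrol. In obese it lay between 487 and 674, and in lean between 520 and 736. Their part in the members' values was not tested.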
